A study of Mus musculus with 27 samples.

Results

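The comparison asked how the thymus transcriptome of mice carrying AKT(E17K) differed when TAL1 was expressed as well. It rests on 6 of the 27 samples of the series: 3 thymus libraries labelled AKT(E17K) (mice m121, m122 and m124) and 3 labelled AKT(E17K) with constitutive TAL1 (mice m116, m117 and m119), all with their raw counts over all genes. All 6 mice were C57BL/6 bone marrow transplant animals and all 6 carried AKT(E17K), so the labels of the 2 groups differ in TAL1 alone. The thymus of 6 further C57BL/6 transplant mice, 3 with an empty vector (M311, M312 and M315) and 3 with TAL1 alone (M317, M318 and M319), was used to set the same TAL1 label beside a background without AKT(E17K). The labels name neither the vector or promoter that drove the genes nor the age, sex, disease stage or share of transplanted cells of a mouse, and each mouse gave 1 library. All p-values therefore measure the spread between single mice.

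TAL1 is a basic helix-loop-helix transcription factor that pairs with E proteins (TCF3, TCF4, TCF12) on E-box sequences and assembles a complex with LMO proteins, LDB1, GATA factors and RUNX1. It is normally silent in developing T cells past the earliest stages, and its activation is a classical lesion of T cell acute lymphoblastic leukaemia. AKT is the kinase at the centre of PI3K signalling; the E17K change in its membrane-binding domain activates it, and active AKT keeps FOXO transcription factors, which drive quiescence and thymic egress genes such as Klf2, out of the nucleus.

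The 6 libraries held 2073752 to 3661056 counts in genes, and 9782 of 22906 gene symbols passed the filter on low counts. Levels below are CPM, counts scaled to library size with TMM normalisation, given in the order m121, m122, m124 for AKT(E17K) and m116, m117, m119 for AKT(E17K) with TAL1, and every fold change is a log2 difference of the TAL1-labelled mice minus the AKT(E17K) mice with its standard error. Thymocyte genes were present in every library, as the tissue label says: Cd3e, a chain of the T cell receptor complex, had 316.8, 263 and 267 against 288, 277 and 224 CPM, and Rag1, a receptor recombinase, had 1217, 1357 and 1393 against 593, 1366 and 940.3 CPM. Of 14 T lineage identity genes tested none had groups that did not overlap, and their median log2 fold change was 0.23, 0.09 without m117 and 0.40 without m124. The Tal1 row did not follow the label. It held 7 counts in AKT(E17K) mouse m121 and 0 in the other 5 mice, where a count of 0 over the 3 TAL1-labelled libraries together allows up to 0.390 CPM, for counting error only. Whether the counting could see the introduced gene is not given in the sources used here, so the 3 libraries are called by their label. Akt1 had 88.7, 102 and 43.7 against 86.6, 81.2 and 85.7 CPM, and its groups overlapped.

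The AKT(E17K) libraries differed among themselves. Mouse m124 correlated with its own group at 0.885 and 0.891 (Pearson's r of log2 CPM across genes, a description) and with the 3 TAL1-labelled mice at 0.904 to 0.935. For m122 these values were 0.895 and 0.891 within its group and 0.866 to 0.913 with the TAL1-labelled mice. Mouse m121 had 0.834 to 0.880 with the TAL1-labelled mice. Mouse m121 held 76 of the 84 genes that were at 20 CPM or more in 1 mouse and at least 8 times the next mouse (after adding 1 CPM to both), among them C1qb and Vcam1 of macrophages and Sparc and Col1a1 of stromal cells. The median SD of log2 CPM was 0.40 among AKT(E17K) mice and 0.32 among TAL1-labelled mice. Among AKT(E17K) mice it was 0.30 without m124, 0.34 without m121 and 0.34 without m122. These 3 values rest on 2 mice each and do not compare directly with those over 3 mice. Fold changes without a mouse are given beside the ranked genes and the genes described in full where they moved by over 1.5 times, and list medians are given with the lowest and the highest value reached when 1 of the 6 mice was left out.

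No gene passed the edgeR quasi-likelihood test with Benjamini-Hochberg adjustment at 0.05 (0 of 9782, 0%), and the smallest adjusted p was 0.218. DESeq2 on the same counts called 76 genes, 41 higher (0.42% of 9759 genes) and 35 lower (0.359%). Without the filter on low counts edgeR called 30, and with the estimate of spread shared over all 12 mice it called 17 higher (0.155% of 10947) and 7 lower (0.0639%), 19 of these 24 also called by DESeq2. Leaving out mouse m124 gave 8 calls, leaving out m119 gave 1, and leaving out any other mouse gave 0. At an unadjusted edgeR p under 0.05, 321 genes were higher (3.28%) and 388 lower (3.97%). In 605 genes (6.18%) all 3 TAL1-labelled mice lay above all 3 AKT(E17K) mice, and in 560 (5.72%) all 3 lay below; these 2 shares are the background for every count of non-overlapping genes in a list. With 3 mice against 3, shares of this order arise without any difference between groups. Separate groups in a gene are therefore a description and do not by themselves show a difference. Mouse m117 was the farthest from the AKT(E17K) mice in 304 of the 605 higher and 266 of the 560 lower genes, while m124 was the AKT(E17K) mouse closest to the other group in 272 and 264. The genes described next are those ranked first by edgeR among non-overlapping genes, 12 in each direction, together with the genes at an unadjusted p under 0.05 in lists of the pathways concerned. With m124 left out 1 of these 24 had an adjusted p under 0.05, and with any other mouse left out 0 did. DESeq2, on the same counts from which they were ranked, called 23 of them, the exception being Tet2 (adjusted p = 0.0842).

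The gene ranked first was Il2ra, which encodes the alpha chain of the interleukin-2 receptor (CD25) and marks the double-negative 2 and 3 stages of thymocytes. It had 39.1, 64.3 and 45.00 CPM in AKT(E17K) mice and 512, 1326 and 308 CPM with TAL1. The lowest TAL1-labelled mouse was several times above the highest AKT(E17K) mouse, and m117 was far above its 2 group members. The log2 fold change 3.86 ± 0.54 was 3.06 without m117, 3.72 without m121 and 3.80 without m124 (DESeq2 adjusted p = 2.94e-14; edgeR adjusted p = 0.0204 in the fit of 12 mice). Of the other chains and partners of this receptor, none of the 17 other genes tested in the IL-2 and STAT5 list reached an unadjusted p under 0.05. Il2rg, the shared gamma chain, differed by 0.54 ± 0.33, Il2rb, the beta chain, by -0.73 ± 1.08, and Stat5a by 0.29 ± 0.26.

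Trib2, a pseudokinase known as a TAL1 target in T cell leukaemia, had 34.9, 15.3 and 38.6 CPM in AKT(E17K) mice and 151, 239.7 and 109.5 CPM with TAL1. Its log2 fold change 2.47 ± 0.40 was 2.13 without m117, 2.18 without m122 and 2.70 without m124, and the groups did not overlap, as the ranking required. Ikzf2, which encodes the Ikaros family factor Helios, had 2.88, 18.96 and 25.7 CPM in AKT(E17K) mice and 214, 204 and 83.9 CPM with TAL1. Mouse m121 was the lowest of the 6, and the log2 fold change 3.40 ± 0.65 was 2.89 without it and 4.04 without m124. Agfg1, which encodes an Arf GTPase-activating protein with FG repeats, had 63.4, 52.7 and 71.2 CPM in AKT(E17K) mice and 302, 639 and 196 CPM with TAL1 (log2 fold change 2.60 ± 0.42, 2.0 without m117, DESeq2 adjusted p = 9.94e-08, adjusted p = 0.218 in the edgeR test of the 6 mice). Its 3 AKT(E17K) mice were close together and every TAL1-labelled mouse was well above them.

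Fam65b (also called Ripor2), a regulator of T cell polarity and migration, had 16.3, 12.6 and 9.51 CPM in AKT(E17K) mice and 84.1, 167 and 32.2 CPM with TAL1 (log2 fold change 2.88 ± 0.54, 2.19 without m117). Abcb1a, a drug efflux transporter, had 1.28, 0.527 and 0.257 CPM in AKT(E17K) mice and 14.4, 39.9 and 5.13 CPM with TAL1 (log2 fold change 4.78 ± 0.91, 5.65 without m121 and 3.77 without m117). Its AKT(E17K) mice were near 0, so the size of this difference is loosely fixed. H2-Q2, a non-classical MHC class I gene with near-identical neighbours between which reads can be split, had 3.52, 1.05 and 3.09 CPM in AKT(E17K) mice and 36.6, 37.4 and 13.5 CPM with TAL1 (log2 fold change 3.43 ± 0.55) and is uncertain for that reason. Dclk2, a doublecortin-like kinase, had 25.3, 18.96 and 9.26 CPM in AKT(E17K) mice and 61.96, 119.7 and 67.6 CPM with TAL1 (log2 fold change 2.23 ± 0.41). Spsb4, an adaptor of a ubiquitin ligase, had 14.4, 14.7 and 12.9 CPM in AKT(E17K) mice and 79.2, 61.8 and 29.8 CPM with TAL1 (log2 fold change 2.03 ± 0.37). Mboat2, a phospholipid acyltransferase, had 1.92, 0 and 1.800 CPM in AKT(E17K) mice and 17.96, 18.7 and 13.05 CPM with TAL1 (log2 fold change 3.56 ± 0.70). In all 6 of these genes the 2 groups were separate, as the ranking required, and m119 was the lowest TAL1-labelled mouse in each of them except Dclk2.

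**Figure D1:**
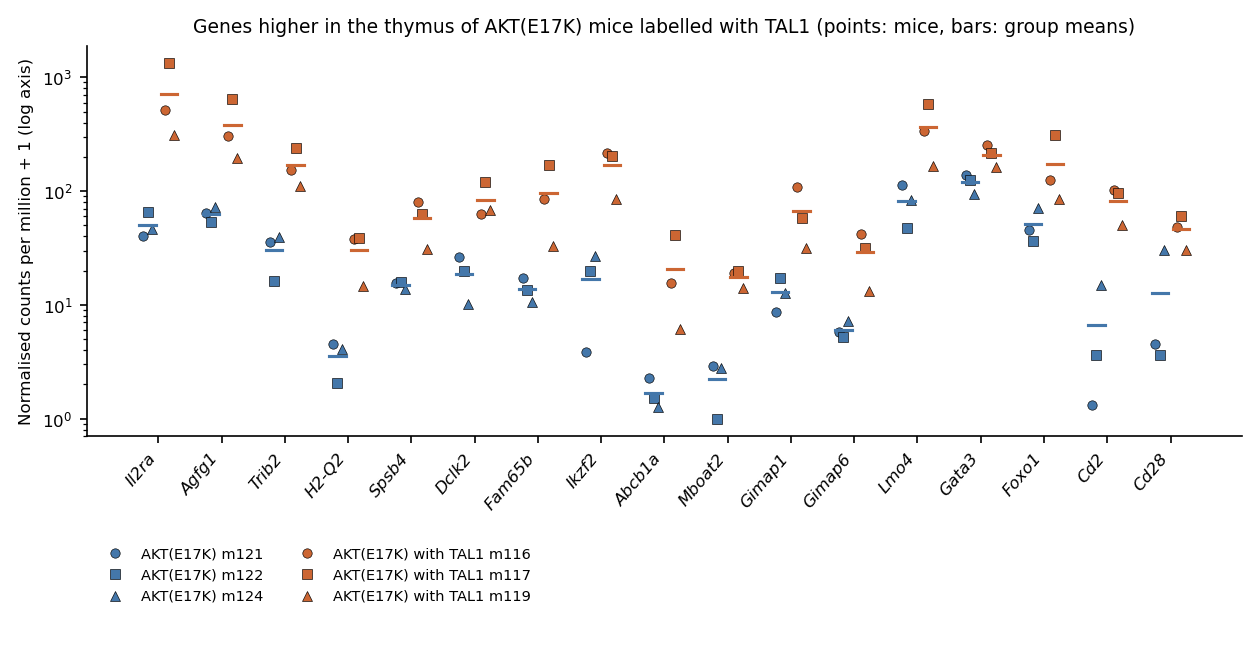
CPM plus 1 (log axis) for the 12 genes ranked first among the higher genes and for Lmo4, Gata3, Foxo1, Cd2 and Cd28; each point is a mouse and each bar a group mean. The 3 TAL1-labelled mice lie above the 3 AKT(E17K) mice in each gene shown, by the narrowest margin in Cd28 (29.3 CPM in m124 against 29.4 CPM in m119). For the 12 ranked genes this separation was a condition of the ranking.

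Promoters of a set of higher genes were read from RefSeq (250 bases before to 50 after the start, GRCm38.p6) because TAL1 complexes bind E-boxes and AKT acts on FOXO factors. The set was picked by hand and not by the ranking. It leaves out the ranked genes H2-Q2, Fam65b and Mboat2 and includes Hes1, whose groups overlapped. Of 18 members looked up, 14 had a single entry. The E-box letters CANNTG occurred in 7 of the 14, against 72.3% of all 32851 promoters. The variant CAGNTG, which overlaps CANNTG, occurred in 3 of the 14 against 51.4%. The letters AGATAA, read by the GATA family, occurred in 0 of the 14 against 11.2% of all promoters. The FOXO letters GTAAACA occurred in 1, that of Abcb1a, against 3.65%. Both strands were searched for each motif. The 3 sequences shown are those of the gene ranked first, of the FOXO factor itself and of an egress integrin whose response differed between backgrounds. Capitals mark CANNTG; Il2ra holds none, Foxo1 holds 1 and Itgb7 holds 2.
Il2ra (chr2:11642542-11642841, plus strand): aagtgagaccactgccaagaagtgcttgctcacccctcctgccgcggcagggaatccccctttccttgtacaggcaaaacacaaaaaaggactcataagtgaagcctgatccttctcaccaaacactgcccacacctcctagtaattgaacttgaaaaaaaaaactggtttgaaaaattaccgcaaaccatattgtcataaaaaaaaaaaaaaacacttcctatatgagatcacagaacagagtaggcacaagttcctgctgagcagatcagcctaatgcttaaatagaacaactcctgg
Foxo1 (chr3:52268087-52268386, plus strand): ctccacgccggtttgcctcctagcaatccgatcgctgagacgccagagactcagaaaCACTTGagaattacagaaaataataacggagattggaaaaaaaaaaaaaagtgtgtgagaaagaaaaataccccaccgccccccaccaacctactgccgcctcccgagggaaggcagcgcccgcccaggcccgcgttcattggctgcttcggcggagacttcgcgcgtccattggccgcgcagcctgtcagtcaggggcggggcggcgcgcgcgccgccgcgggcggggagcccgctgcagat
Itgb7 (chr15:102231886-102232185, minus strand): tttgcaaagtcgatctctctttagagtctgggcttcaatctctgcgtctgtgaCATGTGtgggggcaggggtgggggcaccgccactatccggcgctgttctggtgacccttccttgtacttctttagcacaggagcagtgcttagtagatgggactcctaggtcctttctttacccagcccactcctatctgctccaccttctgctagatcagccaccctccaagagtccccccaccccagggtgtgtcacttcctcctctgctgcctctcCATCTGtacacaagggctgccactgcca
These matches describe the letters in the window only.

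The TAL1 complex itself was represented by 15 tested genes, of which 3 were non-overlapping and higher and 1 lower, with a median log2 fold change of 0.19, -0.09 without m117 and 0.49 without m124, beside -0.01 over all genes tested. Lmo4, an LMO adaptor related to the LMO1 and LMO2 oncoproteins, had 112, 46.4 and 81.8 CPM in AKT(E17K) mice and 337, 585 and 165 CPM with TAL1 (log2 fold change 2.17 ± 0.47, DESeq2 adjusted p = 3.39e-04). Gata3, the GATA factor of the complex and a T lineage regulator, had 139, 123 and 93.3 CPM in AKT(E17K) mice and 251, 213 and 161 CPM with TAL1 (log2 fold change 0.82 ± 0.25), and Ldb1, which bridges the complex, had 9.29, 12.6 and 10.03 CPM in AKT(E17K) mice and 14.8, 25.4 and 17.2 CPM with TAL1 (log2 fold change 0.85 ± 0.37). The lowest TAL1-labelled value was above the highest AKT(E17K) value for each of the 3, by a narrow margin for Gata3 and Ldb1. Tcf4, an E protein, was lower at 363, 246 and 211 CPM in AKT(E17K) mice and 175, 138 and 171 CPM with TAL1 (log2 fold change -0.76 ± 0.26). Tcf4 is also a member of the list of dendritic cell markers, and which cells carried it was not tested. Runx1 differed by -0.27 ± 0.30, Tcf3 by -0.23 ± 0.23 and Tcf12 by 0.21 ± 0.28, none with an unadjusted p under 0.05. Among the ID proteins, which trap E proteins away from DNA, Id2 had 294, 210.2 and 175 CPM in AKT(E17K) mice and 65.1, 30.7 and 156 CPM with TAL1 (log2 fold change -1.44 ± 0.50, -2.24 without m119), with all 3 TAL1-labelled mice below all 3 AKT(E17K) mice and m119 closest to them. Id3 differed by 0.54 ± 0.66 and Id1 by -0.55 ± 0.44.

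Of 12 tested genes known as TAL1 targets, 3 were non-overlapping and higher and 0 lower, with a median of 0.23, 0.09 without m117 and 0.35 without m124. Trib2, Ikzf2 and Gata3 are the 3. Tox, a nuclear factor of T cell development, had 0.961, 1.05 and 8.49 CPM in AKT(E17K) mice and 23.2, 19.8 and 6.06 CPM with TAL1 (log2 fold change 2.13 ± 0.83, 3.98 without m124, unadjusted p = 0.0294), and its groups overlapped. Etv6, a repressor of the ETS family, was the other gene under 0.05, at 83.3, 62.7 and 37.03 against 39.1, 36.7 and 27.03 CPM (log2 fold change -0.83 ± 0.33), lower and overlapping. Of 15 E protein targets, 0 were non-overlapping and higher and 1 lower, and Rag1, Rag2, Dntt and Ptcra differed by -0.45 ± 0.31, 0.50 ± 0.70, 0.59 ± 0.40 and -0.04 ± 0.33. The lower one was Bcl11b, described below, and 9 of the 15 had a log2 fold change above 0 (median 0.25, -0.13 without m117 and 0.36 without m119).

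NOTCH receptors and targets had 4 of 19 tested genes non-overlapping and higher and 0 lower (median 0.26, 0.12 without m117 and 0.39 without m122). Dtx1, a NOTCH target and ubiquitin ligase, had 222, 257 and 251 CPM in AKT(E17K) mice and 441, 1031 and 333 CPM with TAL1 (log2 fold change 1.31 ± 0.39, 0.68 without m117), and Heyl, a transcriptional repressor induced by NOTCH, had 25.3, 12.6 and 17.5 CPM in AKT(E17K) mice and 27.5, 111 and 49.9 CPM with TAL1 (log2 fold change 1.75 ± 0.50, 1.06 without m117). Both separated the groups, Heyl by a narrow margin, and m117 was the highest mouse for both. The other 2 of the 4 were Il2ra and Gata3. Hes1, the best-known target, had 39.1, 32.7 and 16.2 against 80.3, 81.2 and 37.7 CPM (log2 fold change 1.19 ± 0.40), and its groups overlapped. Notch1 differed by 0.25 ± 0.33, Notch3 by 0.60 ± 0.37, Myc by -0.29 ± 0.52 and Nrarp by -0.58 ± 0.55, none at an unadjusted p under 0.05.

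Of 20 T commitment transcription factors tested, 2 were non-overlapping and higher (Gata3 and Ikzf2) and 1 lower (median 0.30, 0.13 without m121 and 0.64 without m124). Tox2, a relative of Tox, had 7.05, 0 and 0 CPM in AKT(E17K) mice and 53.2, 23.3 and 6.52 CPM with TAL1 (log2 fold change 3.48 ± 1.19, 2.82 without m124 and 2.61 without m116) and Runx3, a factor of CD8 T cells, had 2.88, 7.37 and 25.2 CPM in AKT(E17K) mice and 49.6, 49.1 and 21.9 CPM with TAL1 (log2 fold change 1.73 ± 0.67, 3.03 without m124). Both groups overlapped for these 2, although each had an unadjusted p under 0.05. Without m121 the AKT(E17K) mice are at 0 for Tox2, and no fold is given. Bcl11b, the factor that fixes T lineage identity, was lower in every TAL1-labelled mouse at 1731, 1829.8 and 1391 against 1025, 1319.7 and 1046 CPM (log2 fold change -0.55 ± 0.24). Among 23 double-positive stage genes 1 was higher, Aqp11, a water channel (0.41 ± 0.23), and 1 lower, Cd24a, a surface glycoprotein of immature thymocytes, at 276, 261 and 243 against 174, 112 and 185 CPM (log2 fold change -0.73 ± 0.24).

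Of 13 tested genes of the double-negative 2 and 3 stages, 2 were higher (Il2ra and Ikzf2) and 1 lower (Cd24a), with a median of 0.23, 0.08 without m122 and 0.37 without m121.

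Genes of mature and egressing T cells had values in both directions, with 11 of the 21 tested above 0. At an unadjusted p under 0.05 there were 3 higher and 0 lower. Of 21 tested, 3 were non-overlapping and higher and 0 lower, with a median of 0.41, 0.12 without m117 and 0.54 without m124. Itgb7, a gut-homing integrin chain, had 3.84, 4.21 and 4.37 CPM in AKT(E17K) mice and 25.7, 46.95 and 6.52 CPM with TAL1 (log2 fold change 2.67 ± 0.64, 1.96 without m117). Klf2, the factor that drives egress, had 5.44, 4.74 and 5.66 CPM in AKT(E17K) mice and 22.2, 13.4 and 11.2 CPM with TAL1 (log2 fold change 1.55 ± 0.44). Both separated the groups. Several other members had lower values without reaching an unadjusted p under 0.05, among them Ly6a at -2.05 ± 0.91, S100a4 at -1.94 ± 0.96 and Vim at -1.73 ± 1.01.

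GIMAP genes encode GTPases of immunity-associated proteins that support survival of lymphocytes, and lie together on chromosome 6. Of the 8 members, 5 were tested, and 4 of the 5 were non-overlapping and higher, with a median log2 fold change of 2.44, 1.89 without m116 and 2.80 without m119. Gimap1 (chromosome 6, 48739054 to 48743795) had 7.69, 16.3 and 11.8 CPM in AKT(E17K) mice and 108, 57.5 and 30.3 CPM with TAL1 (log2 fold change 2.47 ± 0.48) and Gimap6 (chromosome 6, 48701582 to 48708225) had 4.804, 4.21 and 6.17 CPM in AKT(E17K) mice and 41.2, 30.7 and 12.1 CPM with TAL1 (log2 fold change 2.44 ± 0.49). Gimap8 (chromosome 6, 48647234 to 48660875) had 0, 0.527 and 1.800 CPM in AKT(E17K) mice and 25, 9.53 and 7.46 CPM with TAL1 (log2 fold change 3.98 ± 0.92, 5.78 without m124 and 3.29 without m116) and Gimap4 (chromosome 6, 48684549 to 48692060) had 7.05, 3.69 and 4.63 CPM in AKT(E17K) mice and 25, 12.4 and 15.4 CPM with TAL1 (log2 fold change 1.76 ± 0.46). The groups were separate in all 4, and m119 was the lowest TAL1-labelled mouse except in Gimap4. Gimap9 had 107, 209 and 138 against 376, 389 and 185 CPM (log2 fold change 1.07 ± 0.35), and its groups overlapped. The members resemble one another in sequence, so reads could be shared between them.

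T cell receptor signalling and co-receptor genes had 3 of 28 tested members non-overlapping and higher and 2 lower (median 0.51, 0.22 without m117 and 0.68 without m119). Cd2, an adhesion receptor, had 0.320, 2.63 and 13.9 CPM in AKT(E17K) mice and 101, 94.6 and 48.9 CPM with TAL1 (log2 fold change 3.75 ± 0.80, 5.97 without m124). Mouse m124 stood above its group. Cd28, the main co-stimulatory receptor, had 3.52, 2.63 and 29.3 CPM in AKT(E17K) mice and 47.2, 58.96 and 29.4 CPM with TAL1 (log2 fold change 1.87 ± 0.76, 3.83 without m124), with m124 level with m119. Slamf6, a SLAM receptor, had 92.2, 70.1 and 200.1 CPM in AKT(E17K) mice and 299, 366 and 236 CPM with TAL1 (log2 fold change 1.31 ± 0.38). On the lower side stood Syk, the kinase used before ZAP70 takes over, at 24.3, 12.1 and 5.66 against 2.46, 0 and 0.466 CPM (log2 fold change -3.74 ± 0.97, -3.07 without m121, -5.81 without m116 and -3.15 without m117), and Nfatc1, a calcium-responsive factor, at 51.9, 79.5 and 60.9 against 26.1, 39.9 and 35.9 CPM (log2 fold change -0.91 ± 0.27). Cd5 and Cd6, inhibitory co-receptors, had 0, 0 and 4.11 against 14.8, 11.7 and 0.932 CPM and 1.28, 1.58 and 16.97 against 27.8, 44.8 and 6.06 CPM; both overlapped, at an unadjusted p of 0.0718 and 0.0706. Of 9 genes induced by the T cell receptor, 1 was non-overlapping, Ccr4, a chemokine receptor, lower at 33.6, 48.99 and 24.9 against 10.9, 18.4 and 20.5 CPM (log2 fold change -1.11 ± 0.37).

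FOXO factors and targets had 4 of 21 tested genes non-overlapping and higher and 0 lower (median 0.16, 0.07 without m121 and 0.33 without m124). Foxo1, the main FOXO of T cells, had 44.2, 35.3 and 70.2 CPM in AKT(E17K) mice and 123, 309 and 83.4 CPM with TAL1 (log2 fold change 1.77 ± 0.47, 1.05 without m117). Cdkn1b, which encodes the cell cycle inhibitor p27, had 21.5, 56.4 and 39.1 CPM in AKT(E17K) mice and 67.9, 97.8 and 62.9 CPM with TAL1 (log2 fold change 0.98 ± 0.36), and Klf2 was another of the 4. Foxo1, Cdkn1b and Klf2 all had m117 or m116 at the top. Foxo3 differed by -0.00 ± 0.24, Foxo4 by 0.12 ± 0.27, Txnip by 0.03 ± 0.45 and Ccng2 by 0.62 ± 0.67, none under 0.05, so 17 of the 21 did not separate the groups.

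Within the PI3K, AKT and mTOR components, 1 of 27 was non-overlapping and higher and 2 lower (median 0.10, -0.04 without m122 and 0.16 without m119), among the latter Rptor, the scaffold of mTOR complex 1 (-0.34 ± 0.24, unadjusted p = 0.197). Pik3r1, a regulatory subunit of PI3K, had 98.01, 154 and 159 CPM in AKT(E17K) mice and 219, 357 and 197 CPM with TAL1 (log2 fold change 0.91 ± 0.30). The 2 groups were separate, with m119 the closest TAL1-labelled mouse. Deptor, an mTOR inhibitor, had 14.7, 6.85 and 5.400 against 20.8, 49.1 and 7.92 CPM (log2 fold change 1.53 ± 0.64, 0.68 without m117), and its groups overlapped.

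Proliferation, growth and metabolic lists had medians between -0.21 and 0.34. DNA replication had 0 of 25 higher and 2 lower with a median of -0.10, -0.33 without m116 and 0.04 without m117, and these were Pcna, the sliding clamp, at 405, 244 and 298 against 215, 133 and 212 CPM (log2 fold change -0.76 ± 0.28), and Tyms, the thymidylate synthase, at 170.4, 168 and 145 against 142, 91.1 and 131 CPM (log2 fold change -0.41 ± 0.23, unadjusted p = 0.113). None of 24 mitosis genes separated the groups (median 0.02, -0.14 without m121 and 0.24 without m117), and none of 24 MYC and ribosome biogenesis genes did (median -0.21, -0.42 without m124 and 0.04 without m122), although Bop1, a ribosome assembly factor, was at 225, 136 and 98.5 against 82.03, 55.4 and 98.8 CPM (log2 fold change -0.96 ± 0.34). Cholesterol synthesis had 3 of 23 higher and 0 lower (median 0.34, 0.13 without m121 and 0.66 without m122), among them Mvd, the mevalonate decarboxylase, at 19.5, 30.5 and 23.7 against 55.98, 34.2 and 35.9 CPM (log2 fold change 0.78 ± 0.31), and Msmo1, a sterol oxidase, at 21.8, 38.5 and 25.5 against 54.6, 47.3 and 39.1 CPM (log2 fold change 0.73 ± 0.30). The third was Tm7sf2, a sterol reductase (0.41 ± 0.22). Of 20 glycolysis genes 2 were higher, Pfkp, a phosphofructokinase, at 102, 113 and 97.98 against 146, 142 and 143 CPM (log2 fold change 0.46 ± 0.19) and Hif1a (0.19 ± 0.21), and 2 lower, the glycolytic enzymes Eno1 (-0.43 ± 0.21) and Pgam1 (-0.92 ± 0.70), with a median of -0.04, -0.27 without m124 and 0.15 without m117. Of 20 genes of the ATF4 response 0 were higher and 1 lower (median -0.21, -0.45 without m124 and -0.06 without m117), Asns, the asparagine synthetase, at 21.1, 36.9 and 14.4 against 13.7, 0.353 and 10.7 CPM (log2 fold change -1.53 ± 0.80, -2.15 without m116, unadjusted p = 0.0864). Neither the 13 p53 targets nor the 11 BCL2 family genes tested held a non-overlapping member; Zmat3, an RNA-binding p53 target, was at 32.7, 27.4 and 31.4 against 64.8, 60.4 and 31.2 CPM (log2 fold change 0.77 ± 0.31).

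Interferon-responsive genes had values in both directions. Of 14 tested, 2 were non-overlapping and higher and 1 lower (median 0.24, 0.09 without m117 and 0.54 without m119). Zbp1, a sensor of Z-form nucleic acid, had 7.69, 4.74 and 7.201 against 9.51, 27.2 and 13.5 CPM (log2 fold change 1.33 ± 0.49) and Ifi204 had 26.3, 24.8 and 10.8 against 125, 143 and 37.7 CPM (log2 fold change 2.32 ± 0.51), whereas Irf7, the factor that amplifies interferon genes, had 16.01, 16.3 and 14.9 against 9.51, 9.53 and 4.66 CPM (log2 fold change -0.98 ± 0.41). Ifi27l2a, a small interferon-induced protein, was at 31.4, 2.63 and 5.14 against 4.93, 0.706 and 0.466 CPM (log2 fold change -2.63 ± 1.08, -0.92 without m121 and -4.36 without m116), with overlapping groups. Ifi204 and its neighbour Ifi203 (130.4, 221 and 112 against 419, 493 and 192 CPM, log2 fold change 1.26 ± 0.39) resemble each other closely and their reads may be shared. A single one of 13 MHC class I presentation genes separated the groups, H2-T22, a non-classical class I gene, at 14.1, 10.01 and 9.77 against 23.6, 16.6 and 22.4 CPM (log2 fold change 0.88 ± 0.35). None of 11 immediate early and stress genes did (median 0.20, 0.20 without m116 and 0.33 without m121).

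The genes ranked first on the lower side were mostly outside these lists. Tle6, a Groucho-related corepressor, had 160.1, 93.8 and 16.5 CPM in AKT(E17K) mice and 5.28, 11.7 and 4.66 CPM with TAL1 (log2 fold change -3.62 ± 0.75, -2.89 without m121). Mouse m124 was far below the 2 others of its group, and the value was -4.12 without it. Tet2, a methylcytosine dioxygenase that is often mutated in blood cancers, had 27.9, 26.3 and 25.5 CPM in AKT(E17K) mice and 11.6, 9.89 and 8.39 CPM with TAL1 (log2 fold change -1.41 ± 0.31). Its 3 AKT(E17K) mice lay within a few CPM of each other.

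Rnf216, a ubiquitin ligase, had 32.99, 31.6 and 38.3 against 13.4, 10.2 and 10.3 CPM (log2 fold change -1.60 ± 0.30). Dhx34, an RNA helicase of nonsense-mediated decay, had 94.2, 121.1 and 61.7 against 36.97, 19.8 and 30.3 CPM (log2 fold change -1.66 ± 0.33), and Fxyd5, a regulator of the sodium pump, had 46.1, 28.97 and 27.5 against 12.7, 7.06 and 9.79 CPM (log2 fold change -1.79 ± 0.37). All 3 separated the groups, as the ranking required. Oraov1 (also called Lto1) had 155, 172 and 131 against 45.1, 23.3 and 67.1 CPM (log2 fold change -1.76 ± 0.35), and Carkd (also called Naxd), a repair enzyme of the coenzyme NADH, had 166, 190.1 and 154 against 85.2, 81.2 and 91.8 CPM (log2 fold change -0.98 ± 0.20), the smallest difference of the 12. Vat1 had 25.9, 65.8 and 6.69 against 2.82, 0.706 and 3.26 CPM (log2 fold change -3.84 ± 0.86, -2.84 without m122) and Lrrc16a (also called Carmil1), a regulator of actin capping, had 9.61, 15.3 and 4.37 against 0.704, 0.353 and 1.398 CPM (log2 fold change -3.54 ± 0.79). Spats2l had 39.1, 36.3 and 55.5 against 10.9, 14.5 and 19.1 CPM (log2 fold change -1.57 ± 0.33). Pdzd3 had 33.6, 24.2 and 10.03 against 3.52, 3.18 and 5.59 CPM (log2 fold change -2.46 ± 0.53) and its neighbour Ccdc153 had 152, 41.1 and 48.1 against 13.7, 13.8 and 20.5 CPM (log2 fold change -2.34 ± 0.51, -1.49 without m121); they adjoin on chromosome 9 (44247307 to 44251471 and 44240676 to 44247306), so their reads may not be told apart.

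**Figure D2:**
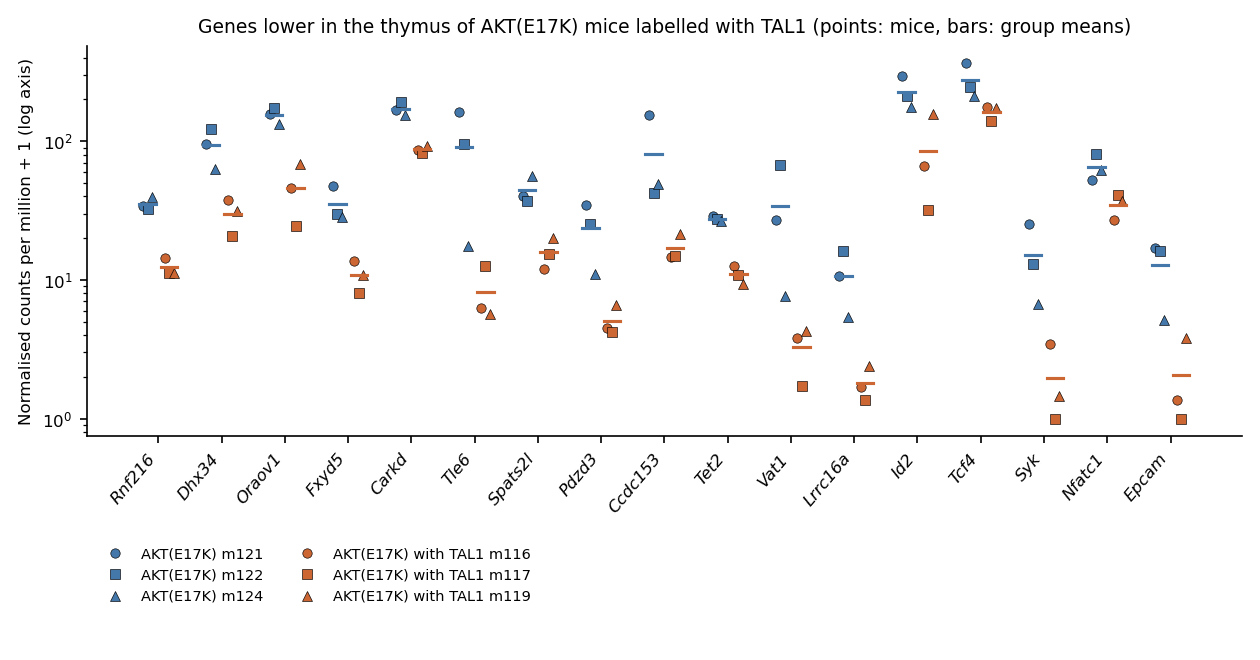
CPM plus 1 (log axis) for the 12 genes ranked first among the lower genes and for Id2, Tcf4, Syk, Nfatc1 and Epcam; each point is a mouse and each bar a group mean. The 3 TAL1-labelled mice lie below the 3 AKT(E17K) mice in each gene shown, which for the 12 ranked genes was a condition of the ranking. Mouse m124 is the AKT(E17K) mouse closest to the TAL1-labelled mice in Tle6, Vat1 and Syk.

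**Figure D3:**
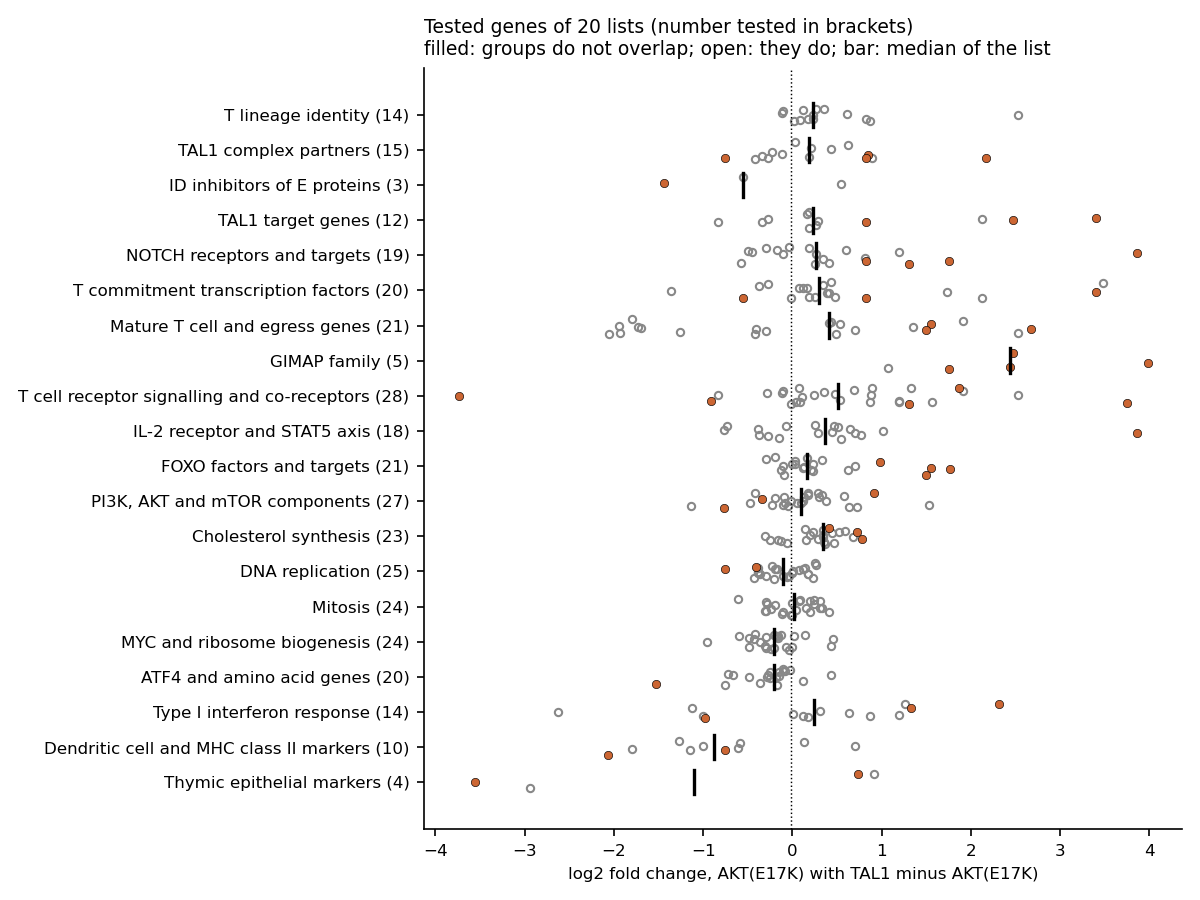
Log2 fold change (TAL1-labelled minus AKT(E17K)) of every tested gene of 20 lists; filled points are genes whose groups do not overlap, bars are list medians and the dotted line is the median of all genes tested. The GIMAP family has a median of 2.44, while the mitosis and DNA replication lists lie around 0.

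Because whole thymus was sequenced, fewer cells of a type and less RNA per cell cannot be told apart, and markers of other cells differed between libraries. Macrophage and granulocyte markers summed to 3251 CPM in m121 and 151 to 805 in the other 5, and endothelial and stromal markers to 1023 against 52.1 to 175. Their medians were -1.63 and -3.49, and 0.56 and 0.62 without m121. Fcer1g, an Fc receptor chain, had 132, 3.69 and 4.63 against 9.51, 7.06 and 3.26 CPM, and Sparc, a matrix protein, had 276, 1.58 and 5.14 against 7.75, 14.1 and 2.796 CPM. At an unadjusted p under 0.05 there were 2 macrophage and granulocyte markers and 3 endothelial and stromal markers, all lower. Of these, C1qc, Col3a1 and Sparc had the opposite sign without m121, and the rest kept their sign. Fcer1g, which was listed with the NK and innate lymphocyte markers, also had the opposite sign without m121. The part of m121's other cells in the remaining results was not tested.

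Dendritic cell and MHC class II genes had 0 of 10 tested higher and 2 lower (median -0.88, -1.22 without m116 and -0.49 without m121). The 2 lower genes were Irf8 and Tcf4, the E protein described above with the TAL1 complex. Irf8, a factor of dendritic cells and B cells, had 92.6, 26.3 and 28.3 against 8.097, 10.2 and 17.2 CPM (log2 fold change -2.06 ± 0.54, -1.21 without m121), and Cd74, the invariant chain of MHC class II, had 134, 32.1 and 22.6 against 35.9, 6.71 and 11.2 CPM (log2 fold change -1.80 ± 0.76, -0.59 without m121 and -2.82 without m116), with overlapping groups. Blnk, a B cell adaptor and the single tested B cell marker, had 14.7, 6.85 and 3.86 against 3.52, 0 and 0.932 CPM (log2 fold change -2.46 ± 1.0, -1.77 without m121, -4.19 without m116 and -1.86 without m117); the summed B cell markers were 19.5 to 52.8 CPM in AKT(E17K) mice and 4.19 to 16.9 in TAL1-labelled mice, with no overlap. Epcam, a surface protein of epithelial cells, had 16.01, 15.3 and 4.11 against 0.352, 0 and 2.796 CPM (log2 fold change -3.55 ± 1.03, -2.93 without m117 and -5.74 without m119), and the thymic epithelial list had 1 of 4 higher, Ly75, an endocytic receptor, at 21.8, 18.4 and 19.8 against 36.6, 34.6 and 28.9 CPM (log2 fold change 0.74 ± 0.28), and 1 lower, Epcam. Of 4 gamma-delta T cell markers tested 1 was higher and 0 lower, and 2 had a log2 fold change above 0 (median -0.37, -0.55 without m124 and 1.09 without m121). The higher one, Cd163l1, a scavenger receptor of gamma-delta T cells, was at 0, 0.527 and 2.06 against 16.9, 5.65 and 5.59 CPM (log2 fold change 3.26 ± 0.97, 5.20 without m124 and 2.55 without m116). Whether these cells bear on the other lower genes was not tested.

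**Figure D4:**
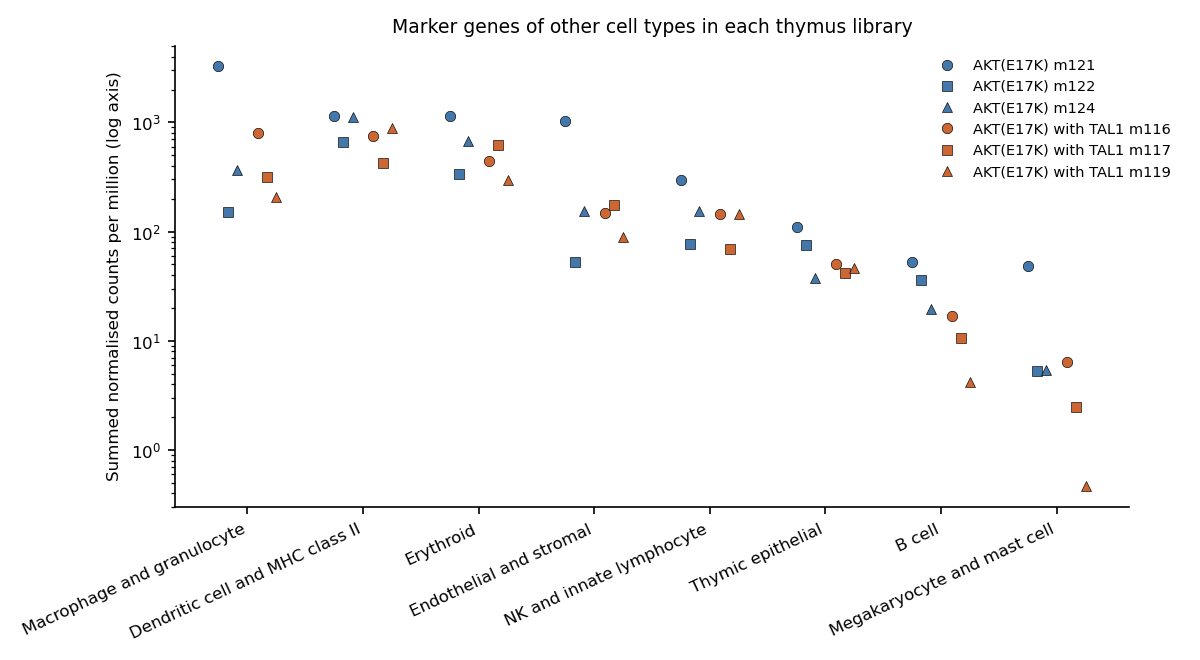
Summed CPM (log axis) of the genes of 8 marker lists in each of the 6 libraries; each point is a mouse. Mouse m121 is the highest for each of the 8 lists, and the B cell sums of the TAL1-labelled mice lie below all 3 AKT(E17K) mice.

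The same TAL1 label could be set beside a background without AKT(E17K), by testing whether the difference between the TAL1-labelled and unlabelled mice differed between the 2 backgrounds in 1 edgeR fit of all 12 mice. The mice without AKT(E17K) were counted in another table, so levels were not compared between tables and any shift between them cancels only in the contrast. A total of 18 genes passed at an adjusted p under 0.05 (0.164% of 10947), all with a higher value in the AKT(E17K) background, and 0 were in the other direction (0%). In 17 of the 18 the 2 estimates had opposite signs, the exception being H2-Q2. Genes picked by a test of the difference tend to have opposite signs, and the share over all genes is not given here. Of the 18, 4 (Klf2, Ms4a6b, Add3 and Ctsw) passed on their own among the mice without AKT(E17K). The count moved with most of the mice left out. It was 2 without any 1 of m116, M311, M312, M315, M317 or M318, 3 without m122 and 11 without m121. It was 49 without m119 and 173 without m124, and stayed near 18 without M319 (17) or m117 (19). limma-voom called 0, with 1176 genes at an unadjusted p under 0.05, and DESeq2 called 186.

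Klf2 had 6.004, 5.19 and 6.26 CPM in AKT(E17K) mice and 24.5, 14.9 and 12.4 CPM in AKT(E17K) with TAL1 mice. In the table without AKT(E17K) it had 187, 132 and 157 CPM in empty vector mice and 45.7, 25.2 and 45.7 CPM in TAL1 mice. With the TAL1 label it was thus higher in all 3 mice with AKT(E17K) and lower in all 3 without. The log2 differences were 1.56 ± 0.34 and -2.03 ± 0.27, which differ by 3.59 ± 0.43 (adjusted p = 0.00575). Add3, which encodes the cytoskeletal protein gamma-adducin, was chosen after its values were seen because its p was the smallest. It had 6.71, 5.77 and 7.39 CPM in AKT(E17K) mice and 24.5, 23.5 and 20.7 CPM in AKT(E17K) with TAL1 mice. In the table without AKT(E17K) it had 152, 214 and 185 CPM in empty vector mice and 81.2, 66.6 and 86.3 CPM in TAL1 mice. Its log2 differences of 1.77 and -1.23 differ by 3.0 ± 0.29 (adjusted p = 7.40e-04).

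Itgb7 had log2 differences of 2.69 and -1.85 in the 2 backgrounds (adjusted p of the difference = 0.0428), and Cd2 of 3.72 and -0.83 (adjusted p = 0.0346). Gimap4, Gimap6 and Gimap8 had 1.76, 2.45 and 3.98 with AKT(E17K) and -2.33, -0.68 and -0.79 without. All 5 of these estimates were above 0 in the AKT(E17K) background and below 0 without it. None of the 5 passed on its own among the mice without AKT(E17K), so a reversal is not shown for them. Fam65b had 2.90 and -1.09, and Agfg1 2.60 and -0.32. Il2ra was not among the 18: its values were 3.88 and 0.44, with an adjusted p of the difference of 0.149. Trib2 had 2.47 and -0.08 (adjusted p = 0.0764).

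For the lists, the medians with AKT(E17K) and without it were 0.40 and -1.11 for mature and egress genes, 2.45 and -0.68 for the GIMAP family, 0.25 and -1.27 for interferon genes, -0.09 and 0.57 for DNA replication and 0.03 and 0.65 for mitosis, beside -0.02 and -0.01 over all genes. These list medians were not tested against each other.

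**Figure D5:**
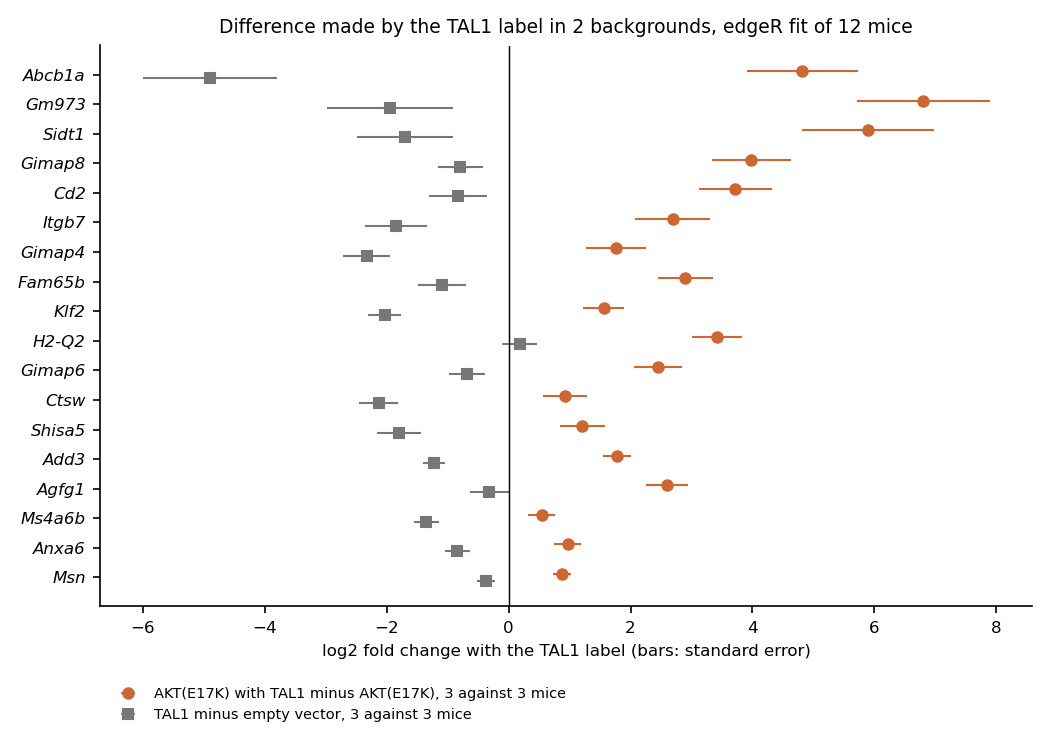
Log2 difference with the TAL1 label (± standard error) for 18 genes in the AKT(E17K) background and in the background without AKT(E17K), from 1 fit of 12 mice. Klf2, Itgb7, Cd2 and the GIMAP genes are above 0 in the first and below 0 in the second.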

How the data were processed

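RNA from whole thymus was sequenced, and the authors deposited a table of raw counts per gene symbol. Per the submitters' processing notes, FastQC, HISAT2, SAMtools and HTSeq were used with build mm10/GRCm38. Tool versions, annotation and strand setting are not given in the sources used here, so overlapping and antisense genes may share reads. The members and gene lists were chosen with earlier results of these data known.

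Counts of 6 libraries were fitted with edgeR 4.0.16 (R 4.3.3; TMM, filterByExpr, quasi-likelihood F test, two-sided, Benjamini-Hochberg over 9782 genes, threshold 0.05), with no covariate. The contrast between backgrounds used 12 libraries and 22729 shared symbols. The biological coefficient of variation was 34.95% over 6 mice and 29.91% over 12. Alternatives were median-of-ratios factors, library size only, no filter, a mean of at least 20 counts, DESeq2 1.42.0, limma-voom 3.58.1 and leaving out each mouse in turn; the fit of all 12 mice was added after seeing the data. The fitting was run on simulated data with the same spread for all genes and no outlying mouse. It does not cover a library such as m121, and its outcome is not reported here. Named genes were, in each direction, the 12 non-overlapping genes with the smallest p (predicted genes and pseudogenes left out), list members at an unadjusted p under 0.05, label checks, and those of them past the threshold for the difference between backgrounds; others are named as chosen after their values were seen. CPM are normalised counts. Depth was 2073752 to 3661056 counts in AKT(E17K) mice, 2230143 to 2792084 with TAL1, 3893990 to 5915285 with empty vector and 7155918 to 11302098 with TAL1 alone. T cell receptor segments, planned as a description, were not analysed here, and some list members counted in the lists are not reported here by name.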

Additional observations from a re-analysis of the deposited data

Results flagged for a closer look

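In 18 genes the log2 difference with the TAL1 label differed between the AKT(E17K) background and the background without AKT(E17K) (edgeR quasi-likelihood test of the contrast over 12 mice, adjusted p of 7.40e-04 for Add3, 0.00575 for Klf2 and 0.0234 to 0.0436 for the other 16). The difference between the 2 log2 differences was 9.71 for Abcb1a, 8.75 for Gm973 and 7.59 for Sidt1, genes with few or no counts in some groups, so that these 3 values are loosely fixed. It was 4.77 for Gimap8, 4.08 for Gimap4 and 3.13 for Gimap6, and 4.53 for Itgb7 and 4.54 for Cd2. Klf2 had 3.59, Fam65b 3.99, H2-Q2 3.24, Agfg1 2.92 and Ms4a6b 1.89. Genes named here after their values were seen were Add3 (3.0), Shisa5 (3.01), Ctsw (3.06), Anxa6 (1.81) and Msn (1.25), besides Gm973 and Sidt1. Anxa6, Add3 and Msn encode proteins of the membrane and cell cortex. The number of genes passing ranged from 2 to 173 when 1 of the 12 mice was left out, and how many of these 18 still passed depended on the mouse. It was 2 without any 1 of m116, m122, M311, M312, M315, M317 or M318, 8 without m121, 12 without m117, 14 without M319 and 18 without m124 or m119.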

How the results depend on the processing

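The count of genes called in AKT(E17K) mice was 0 in the reported test and with either other scaling, the higher count minimum and limma-voom. It was 30 with no filter on low counts, 76 with DESeq2 and 24 in the fit of 12 mice, and 0 to 8 with 1 mouse left out. The count of genes differing between backgrounds was 18, and became 58 with no filter, 186 with DESeq2 and 0 with limma-voom (which had 1176 genes at an unadjusted p under 0.05), and 2 to 173 with 1 mouse left out. The 1165 genes whose groups do not overlap stayed within 1.5 times under each setting tried. Over 83 named genes and 13 settings, 996 values kept their direction and side of the threshold, 69 passed it newly and 4 reversed; 10 gave no value (5 under DESeq2, 4 under the higher count minimum and 1 in the fit of 12 mice). The 4 reversed without m121: with 1 mouse left out Fcer1g ranged from -3.34 to 0.66, C1qc from -3.74 to 0.72, Col3a1 from -4.77 to 0.62 and Sparc from -4.11 to 1.22. The cause of these moves was not tested, except that a fit with no filter tests more genes. No paired analysis was possible because the mice compared carry different mouse numbers and share none. Depth (2073752 to 3661056 counts) limits calls for genes with few counts.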

Other observations

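Further genes called by DESeq2 in AKT(E17K) mice lay outside the lists; they are named after their values were seen. Ccr2 and Cxcr3, chemokine receptors, had 36.2, 11.1 and 5.14 against 1.76, 1.77 and 0.466 CPM and 16.3, 32.7 and 12.1 against 2.46, 2.12 and 6.99 CPM (DESeq2 adjusted p = 0.00608 and 0.028). Ccr2 was highest in m121, the library with the most macrophage markers, and which cells carried it was not tested. Ly9, a SLAM receptor, had 21.8, 13.2 and 15.4 against 46.1, 54.7 and 34.5 CPM (adjusted p = 0.0346), and Aim2, a sensor of cytosolic DNA, had 5.77, 17.9 and 18.00 against 43.3, 92.8 and 24.7 CPM (adjusted p = 0.0428). edgeR's quasi-likelihood test with the same counts gave none of these an adjusted p under 0.05.

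Iltifb, a gene of the interleukin-22 family with a near-identical copy, had 0 counts in all 3 AKT(E17K) mice and 15.9 CPM over the 3 TAL1-labelled mice together, at least 47.7-fold higher than the 3-count floor over the group of 0.333 CPM. This fold pools the mice of a group, so it covers counting error only and not the spread between mice. 3830403N18Rik reached 48.5-fold by the same pooled measure with all its counts in m119 (57.8 CPM). Gm12504 had 1419 CPM in m122 and 7.0 to 36.8 in the other 5, and Cpe, a peptide-processing enzyme, had 62.8 CPM in m117 and 0 to 3.8 in the other 5.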
